A study of Homo sapiens with 6 samples.

Results

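Antisense and LINC long non-coding RNAs were examined in ES2 cells, a human ovarian cancer line labelled as epithelial, after knockdown of another long non-coding RNA, RUNX1-IT1. The members were the rows whose symbol ended in -AS with or without a number, or began with LINC and a number, in all 6 deposited tables. This pattern took 71 rows, and 2 of these, PAX8-AS1 and LINC00894, were set aside by name, which left 69 members of 771 rows with a gene symbol, 50 of them -AS and 19 LINC. The rule is written in names, and the 2 rows it sets aside are given below with their values. Both groups were the same line grown in RPMI-1640 with fetal bovine serum and antibiotics. The 3 control ASO libraries carry the genotype label Control, and the 3 RUNX1-IT1 ASO libraries carry the label RUNX1-IT1 knockdown, ASO being an antisense oligonucleotide. The dose, the hours of treatment and the oligonucleotide sequences are not given in the sources used here, and 1 cell line stands for all results.

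An antisense long non-coding RNA is read from the strand opposite a named gene, its sense gene, and often starts close to that gene's own promoter. Some act on the sense gene in place, for instance on its splicing or its chromatin, while for many no role is established. A LINC RNA is named for lying between genes rather than across from one. Most RNAs of both kinds are present at low levels, so that counting error weighs more on them than on typical messenger RNAs.

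The starts of 3 of the -AS members with the highest mean CPM are printed to show how unlike each other the promoter sequences of these RNAs are. CPM is the deposited unit, in which reads are scaled to the library total. Each window runs from 250 bases before the start to 50 bases after it, 5′ to 3′ on the RNA's own strand (RefSeq, GRCh38.p14), and the capitals mark the first 50 bases of the RNA. The window of NEXN-AS1 is chr1:77889490-77889789 on the minus strand, that of LBX2-AS1 chr2:74502343-74502642 on the plus strand and that of LPP-AS2 chr3:188154039-188154338 on the minus strand.
NEXN-AS1: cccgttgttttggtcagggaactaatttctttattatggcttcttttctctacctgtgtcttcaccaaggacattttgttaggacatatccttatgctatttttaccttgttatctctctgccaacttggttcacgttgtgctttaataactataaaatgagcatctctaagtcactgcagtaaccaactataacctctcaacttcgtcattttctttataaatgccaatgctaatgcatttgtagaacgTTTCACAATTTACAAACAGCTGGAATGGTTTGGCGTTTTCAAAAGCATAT
LBX2-AS1: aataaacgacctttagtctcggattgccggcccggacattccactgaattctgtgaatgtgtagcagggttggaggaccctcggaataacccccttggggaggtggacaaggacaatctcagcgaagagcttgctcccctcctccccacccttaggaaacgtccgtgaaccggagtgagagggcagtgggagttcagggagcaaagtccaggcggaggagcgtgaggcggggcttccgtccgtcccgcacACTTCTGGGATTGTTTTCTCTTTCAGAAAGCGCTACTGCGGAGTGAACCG
LPP-AS2: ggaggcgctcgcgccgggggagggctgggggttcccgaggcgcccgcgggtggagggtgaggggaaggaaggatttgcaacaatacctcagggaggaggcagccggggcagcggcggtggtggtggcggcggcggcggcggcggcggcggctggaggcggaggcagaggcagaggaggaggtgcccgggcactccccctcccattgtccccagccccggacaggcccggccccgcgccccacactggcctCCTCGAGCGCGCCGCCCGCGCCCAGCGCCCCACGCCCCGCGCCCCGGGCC
The 3 windows held 36.0%, 57.3% and 79.3% G and C, and the NEXN-AS1 window held a TATAAA box. No window of the 3 held exon bases of a protein-coding gene in GENCODE release 29. In contrast, 282 of the 300 bases of the VIM-AS1 window were exon bases of VIM on the other strand, as were 152 bases of MKLN1 in the MKLN1-AS window and 141 bases of GAS6 in the GAS6-AS2 window. These 3 windows are therefore described and not printed.

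The tables held 1113 rows in each of the 6 libraries, and in 1112 of them the group means were 2-fold or more apart. The rows thus appear to have been picked for a difference between these same samples, and a p-value over them is no independent evidence of a change. Summed, the rows took 1.02 to 1.11% of each control library and 0.363 to 0.389% of each knockdown library. The even steps between low values put 3 reads, used as a floor for counting error only, at 0.141 to 0.176 CPM, and read numbers below are estimates from these steps. RUNX1-IT1 and RUNX1 are not among the rows used here, so the knockdown itself could not be checked. Of 9 ovarian epithelial markers 1 was a row, PAX8, of 6 immune markers 1, ITGAM, and of the 5 fibroblast and 3 endothelial markers none, which says nothing of markers outside the rows, so the labelled cell type was not checked. PAX8 went from 7.16 ± 0.733 to 2.98 ± 0.602 CPM and ITGAM from 1.72 ± 0.113 to 0.127 ± 0.0792 CPM, both lower like the members, and their part in the results was not tested. Whether fewer cells holding an RNA or less of it per cell lies behind its lower share of reads cannot be told apart in bulk RNA.

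The mean of each of the 69 members was lower after the RUNX1-IT1 ASO, as was the mean of 1081 of all 1113 rows. It was not lower for all 71 rows of the name pattern. LINC00894, set aside by the rule, was higher, at 1.20, 1.74 and 1.32 CPM in controls and 3.74, 3.01 and 2.75 CPM after knockdown. PAX8-AS1, also set aside, was lower, from 29.9 ± 0.714 to 4.04 ± 0.307 CPM. Neither enters the counts of members. The summed level of the 69 was 216, 211 and 224 CPM in control ASO replicates 1, 2 and 3, while the knockdown replicates 1, 2 and 3 had 74.2, 69.8 and 73.0 CPM. The groups did not overlap in this sum. As a share of all listed CPM the members held 2.00, 2.07 and 2.02% in controls and 2.04, 1.83 and 1.87% after knockdown, and there the groups overlapped. The members were thus lower to about the same degree as the listed rows as a whole.

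Named rows averaging 1 CPM or more across the 6 libraries, 489 in all, were tested with limma on log2(CPM + 1), with an adjusted p under 0.05 as the threshold. Of the 69 members 37 reached this mean, and all 37 were called lower and none higher, where 97.5% of all tested rows were called lower and 2.04% higher. Without the filter on low values all 69 were called lower, where 97.3% of all named rows were. These shares are near the background and are not a result about the members. Their median change was -0.98 on the log2(CPM + 1) scale, with quartiles of -1.22 and -0.83, against -1.11 over all 489 rows, with quartiles of -1.43 and -0.88. By group means 20 of the 37 were under 3-fold lower and 10 were over 4-fold lower. Every RUNX1-IT1 ASO library lay below every control ASO library for all 37, and for 67 of the 69 members, where 95.7% of all named rows were separated this way. Between replicates, the median coefficient of variation of the 37 was 10.7% among controls and 16.5% after knockdown. The 387 tested rows with control means in the members' range had 11.5% and 21.1%.

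**Figure D1:**
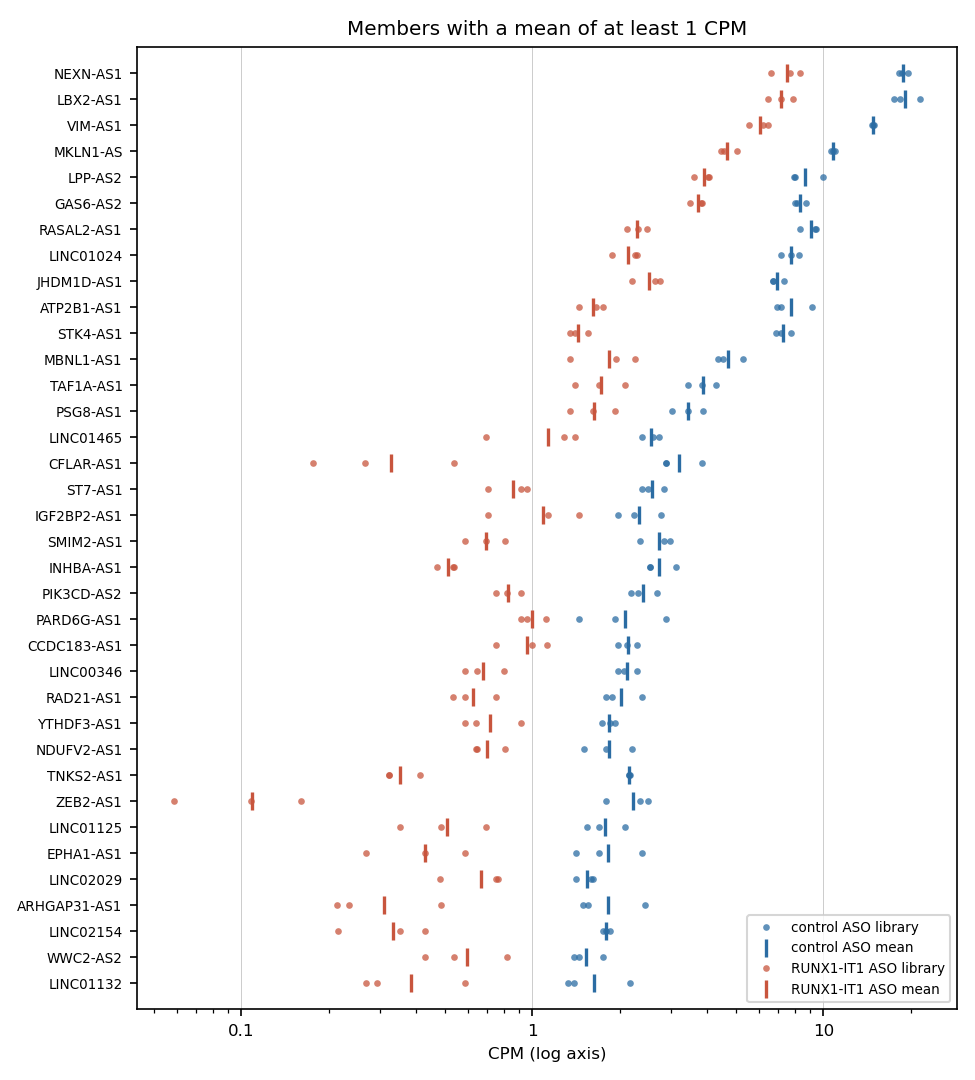
CPM of 36 of the 37 members with a mean of at least 1 CPM (log axis), 1 point per library and a bar at each group mean. No library of the RUNX1-IT1 ASO group reaches the lowest control ASO library of the same RNA, and ZEB2-AS1 and CFLAR-AS1 show the widest gaps.

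The members are described in an order set by what the sense gene encodes, which was chosen after the values were seen and is no result. NEXN-AS1 lies opposite NEXN, which encodes the actin-binding protein nexilin. It stood at 18.1, 18.6 and 19.6 CPM in control ASO replicates 1, 2 and 3 while replicates 1, 2 and 3 of the knockdown had 8.29, 6.61 and 7.67 CPM. All 3 RUNX1-IT1 ASO values were far under the lowest control, and the group means of 18.8 ± 0.745 and 7.53 ± 0.847 CPM (SD, n = 3 each) differed 2.50-fold. On the log2(CPM + 1) scale it fell by 1.22 ± 0.11 (limma SE, adjusted p = 1.41e-07).

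VIM-AS1, opposite the gene of the intermediate filament protein vimentin, had the smallest coefficient of variation between control libraries of the 37, at 0.66%. It measured 14.7, 14.8 and 14.9 CPM in the control ASO libraries and 6.203, 6.45 and 5.57 CPM in the RUNX1-IT1 ASO libraries, 2.44-fold lower (change -1.16 ± 0.10, limma, adjusted p = 1.43e-07). Of its exon bases, 32.2% also lie in VIM exons on the other strand, and the counting is not stated to use strand, so reads of VIM and VIM-AS1 cannot be told apart there. VIM is not a row.

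MKLN1-AS, opposite the muskelin gene, measured 10.8, 11.002 and 10.7 CPM in controls and 4.44, 4.57 and 5.04 CPM under the RUNX1-IT1 ASO, 2.31-fold lower (change -1.06 ± 0.10, limma). LPP-AS2, opposite the gene of a LIM domain protein of focal adhesions, measured 8.02, 7.93 and 9.94 CPM in controls and 4.01, 3.60 and 4.04 CPM under the RUNX1-IT1 ASO, 2.22-fold lower (change -0.97 ± 0.12, limma). LBX2-AS1, opposite a homeobox gene, had similar levels to NEXN-AS1, at 18.4, 17.4 and 21.4 CPM in controls and 6.47, 7.15 and 7.85 CPM under the RUNX1-IT1 ASO, 2.67-fold lower (change -1.30 ± 0.11, limma). Divided by the merged exon length in GENCODE release 29, the control means of LBX2-AS1, NEXN-AS1 and VIM-AS1 were 9.16, 8.20 and 7.43 CPM per kb. These 3 were the highest of the 69 members on the per-length scale too, followed by GAS6-AS2 at 4.25. Exons of LBX2 on the other strand hold 31.2% of the LBX2-AS1 exon bases, and those of NEXN 10.8% of the NEXN-AS1 bases. The limit given for VIM-AS1 therefore holds for them too.

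RNAs named for kinases, growth factors and other signalling genes ranged from 2.10-fold to 9.77-fold lower. STK4-AS1 starts next to STK4, the gene of a Hippo pathway kinase. It measured 7.72, 7.18 and 6.88 CPM in controls and 1.55, 1.34 and 1.41 CPM under the RUNX1-IT1 ASO, 5.07-fold lower. Its change of -1.76 ± 0.12 (limma, adjusted p = 1.39e-08) was the largest of the 37 on the log2(CPM + 1) scale. ATP2B1-AS1, opposite the gene of a plasma membrane calcium pump, measured 9.12, 6.95 and 7.16 CPM in controls and 1.66, 1.45 and 1.76 CPM under the RUNX1-IT1 ASO, 4.77-fold lower (change -1.73 ± 0.13, limma). RASAL2-AS1, next to the gene of a Ras GTPase-activating protein, measured 9.47, 8.34 and 9.38 CPM in controls and 2.30, 2.47 and 2.11 CPM under the RUNX1-IT1 ASO, 3.95-fold lower (change -1.61 ± 0.11, limma).

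CFLAR-AS1 lies inside CFLAR, which encodes an inhibitor of caspase-8 activation. It measured 2.89, 3.82 and 2.88 CPM in controls and 0.267, 0.538 and 0.176 CPM under the RUNX1-IT1 ASO. The groups were far apart, 9.77-fold by their means, although the lower value rests on 18 reads in all (change -1.66 ± 0.15, limma). CASP10, a caspase gene that begins 25058 bases away, was also a row and measured 2.49, 2.03 and 2.55 CPM in controls and 0.428, 0.484 and 0.586 CPM under the RUNX1-IT1 ASO.

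INHBA-AS1, opposite the gene of the activin A subunit, measured 2.54, 2.55 and 3.11 CPM in controls and 0.535, 0.538 and 0.469 CPM under the RUNX1-IT1 ASO, 5.32-fold lower (change -1.30 ± 0.12, limma). TNKS2-AS1, which starts 21 bases from the tankyrase gene TNKS2, measured 2.14, 2.14 and 2.17 CPM in controls and 0.321, 0.323 and 0.410 CPM under the RUNX1-IT1 ASO, 6.12-fold lower (change -1.22 ± 0.12, limma). In both RNAs each RUNX1-IT1 ASO library was at less than 1 CPM while every control was above 2 CPM. GAS6-AS2, next to the gene of a ligand of the AXL receptor family, differed less, from 8.29 ± 0.382 to 3.70 ± 0.195 CPM, 2.24-fold. PIK3CD-AS2, opposite the gene of a phosphoinositide 3-kinase catalytic subunit, went from 2.40 ± 0.257 to 0.828 ± 0.0828 CPM, 2.90-fold lower. PARD6G-AS1, opposite a cell polarity gene, went from 2.09 ± 0.734 to 0.997 ± 0.104 CPM, 2.10-fold lower, and was the least changed of the 37 (change -0.60 ± 0.16, limma, adjusted p = 0.00272). Control ASO replicate 1 was at 2.89 CPM there and replicate 2 at 1.45 CPM, so the spread within the controls was wide.

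ZEB2-AS1 had the greatest fold among the tested members. It lies inside ZEB2, the gene of a repressor that takes part in epithelial-mesenchymal transition, and is known for acting on the splicing of the ZEB2 leader. It measured 2.34, 1.80 and 2.50 CPM in controls and 0.160, 0.108 and 0.059 CPM under the RUNX1-IT1 ASO, 20.3-fold by group means. The lower value rests on 6 reads over 3 libraries, each at or under the floor of 3 reads, so the fold is imprecise. The log2 change, which understates folds of low genes, was -1.53 ± 0.13 (limma, adjusted p = 1.15e-07). Of the ZEB2-AS1 exon bases, 41.4% lie in ZEB2 exons on the other strand.

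The 6 RNAs given next, named for genes of chromatin, RNA processing and transcription, were lower by 2.13- to 3.24-fold. This is not the range of all members named for such genes. LBX2-AS1 lay within it at 2.67-fold, but ZEB2-AS1 was 20.3-fold lower. Of the untested members, HIF1A-AS1 was 4.67-fold and JMJD1C-AS1 3.96-fold lower. JHDM1D-AS1, next to the gene of the histone demethylase KDM7A, measured 6.73, 6.72 and 7.35 CPM in controls and 2.19, 2.64 and 2.75 CPM under the RUNX1-IT1 ASO, 2.74-fold lower. MBNL1-AS1, opposite the gene of a splicing regulator, went from 4.71 ± 0.5002 to 1.84 ± 0.458 CPM. TAF1A-AS1, opposite the gene of an RNA polymerase I initiation factor subunit, went from 3.85 ± 0.426 to 1.73 ± 0.345 CPM. RAD21-AS1, opposite a cohesin subunit gene, was 3.24-fold lower. YTHDF3-AS1, next to the gene of a reader of methylated adenosine in RNA, was 2.57-fold lower and IGF2BP2-AS1, opposite the gene of an RNA-binding protein, 2.13-fold lower. The libraries of the groups did not overlap for any of these 6 RNAs, where 95.7% of all named rows lay lower without overlap.

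The other -AS rows among the 30 tested members of highest mean lie across from genes of mixed kind. SMIM2-AS1 was 3.90-fold lower, ST7-AS1 2.99-fold, NDUFV2-AS1, across from a subunit gene of respiratory complex I, 2.63-fold, CCDC183-AS1 2.22-fold and PSG8-AS1 2.11-fold.

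Among the LINC rows, 7 of 19 were tested, and all 7 fell, where 97.5% of all tested rows did, with a median change of -0.89 against -0.999 for the 30 tested -AS rows. LINC01024, now named MALINC1, is a mitosis-associated RNA. It measured 7.77, 7.18 and 8.25 CPM in controls and 2.25, 1.88 and 2.29 CPM under the RUNX1-IT1 ASO, 3.62-fold lower (change -1.48 ± 0.12, limma, adjusted p = 7.19e-08). It was the only LINC row with a control mean over 3 CPM. LINC01465 went from 2.57 ± 0.181 to 1.13 ± 0.381 CPM and LINC00346 from 2.11 ± 0.165 to 0.678 ± 0.112 CPM, 2.27-fold and 3.12-fold lower. The 7 tested members with the lowest means, 4 of them LINC rows, had changes of -1.10 to -0.61 and were 2.32- to 5.88-fold lower. LINC01125, one of these, is listed in RefSeq as the protein-coding gene C2orf92.

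**Figure D2:**
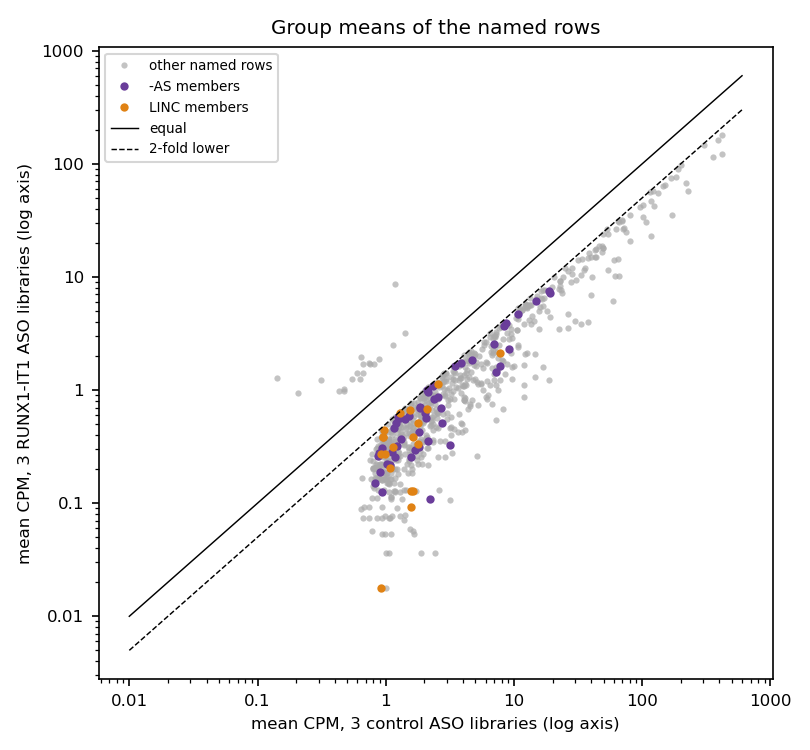
Mean CPM of the 3 control ASO libraries (x) against the 3 RUNX1-IT1 ASO libraries (y), both on log axes, for 768 named rows; 3 rows with a mean of 0 in a group are not drawn. The 69 members, coloured by name form, lie below the dashed line of a 2-fold lower mean, within the cloud of other listed rows.

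The other 32 members had a mean under 1 CPM and were not tested, so their values are given as a description. Their control means ran from 0.828 to 1.69 CPM and their RUNX1-IT1 ASO means from 0.0177 to 0.624 CPM. The groups were separated in 30 of them, near the 95.7% of all named rows. In PRC1-AS1 and ARF4-AS1 they overlapped, since 1 control library (0.424 CPM in control ASO replicate 3, and 0.290 CPM in control ASO replicate 2) lay within the range of the RUNX1-IT1 ASO libraries. No member was at 0 in a control library, while 1, 2 and 2 members were at 0 in RUNX1-IT1 ASO replicates 1, 2 and 3. In those libraries 9, 11 and 13 members were at or under the floor of 3 reads.

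TGFB2-AS1, next to the gene of the growth factor TGF-beta 2, had the highest control mean of the untested members. It measured 2.09, 1.56 and 1.41 CPM in controls and 0.321, 0.269 and 0.293 CPM under the RUNX1-IT1 ASO, 5.74-fold lower by group means, with no overlap. XXYLT1-AS2 measured 1.45, 1.45 and 1.84 CPM in controls and 0.428, 0.215 and 0.117 CPM under the RUNX1-IT1 ASO. LINC01647 measured 1.40, 1.74 and 1.602 CPM in controls and 0.053, 0.108 and 0.117 CPM under the RUNX1-IT1 ASO, where the values amount to 5 reads in all. LINC02158 and LINC01215 had control means of 1.62 and 1.56 CPM and RUNX1-IT1 ASO means of 0.129 and 0.128 CPM, resting on 7 reads each. The remaining 27 had control means of 0.828 to 1.42 CPM. LINC01273, chosen after its values were seen, measured 0.847, 0.521 and 1.37 CPM in controls and a single read (0.053 CPM) in RUNX1-IT1 ASO replicate 1, with 0 in the other libraries of that group, so no fold is given.

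**Figure D3:**
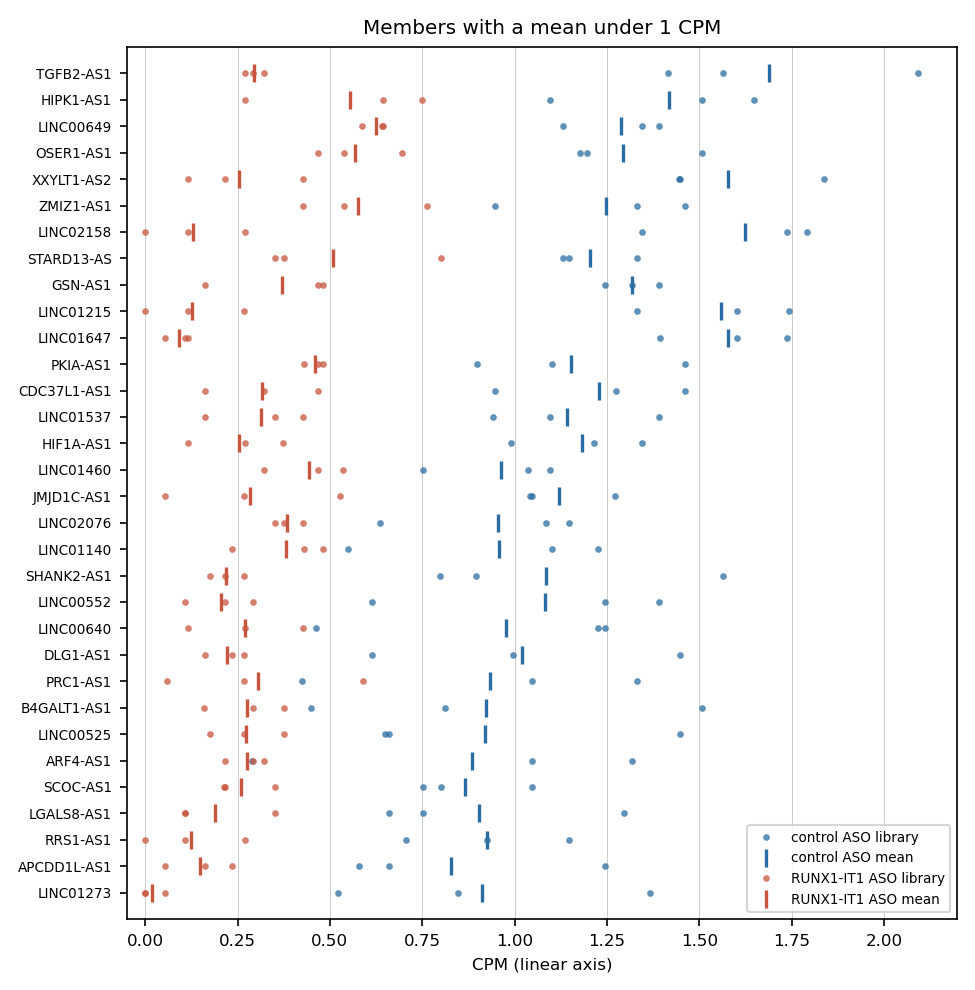
CPM of the 32 members with a mean under 1 CPM (linear axis), 1 point per library and a bar at each group mean. Points of the groups are separate in 30 of the 32 RNAs and overlap in PRC1-AS1 and ARF4-AS1, and many RUNX1-IT1 ASO points lie near 0.

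Of the 50 -AS members, 1 had its sense gene among the rows, PSG8-AS1, and 49 did not, with older symbols of the sense genes taken into account. The levels of those 49 sense genes are not analysed here. PSG8 encodes a pregnancy-specific glycoprotein, a family of near-identical genes whose reads can be shared between copies. PSG8-AS1 (chr19:42821863-42826878, plus strand) lies inside PSG8 on the opposite strand and shares no exon base with it in GENCODE release 29. It measured 3.44, 3.01 and 3.86 CPM in controls and 1.93, 1.61 and 1.35 CPM under the RUNX1-IT1 ASO. PSG8 measured 1.64, 1.27 and 1.51 CPM in controls and 0.321, 0.054 and 0.293 CPM under the RUNX1-IT1 ASO, and its mean, under 1 CPM, kept it out of the fit. Both were lower without overlap, PSG8-AS1 by 2.11-fold and PSG8 by 6.63-fold. The PSG8 value of 0.054 CPM in RUNX1-IT1 ASO replicate 2 was under the floor of 3 reads, so the PSG8 fold is imprecise.

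The log2 ratio of antisense to sense, each as CPM + 1, was 0.84 in controls and 1.11 under the RUNX1-IT1 ASO. The difference of 0.27 did not pass an exact two-sided permutation test (p = 0.2, n = 3 libraries each, 1 pair compared), where 3 against 3 libraries cannot give less than 0.1. Its size depended on the scale, at 1.37 with a pseudocount of 0.1 CPM (exact p = 0.1) and 0.81 after rescaling to equal listed totals (exact p = 0.1), and it ran from 0.16 to 0.39 when 1 library was left out.

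Few other members had a listed row nearby. Within 100 kb, 8 of the 69 members had at least 1, making 10 pairs, and the neighbouring row was lower in every RUNX1-IT1 ASO library in 9 of them, which is close to the 95.7% of all named rows and no result about neighbours. LINC00525 overlaps PKD1L1, a polycystin family gene, and shares no exon base with a gene on the other strand. LINC00525 went from 0.919 ± 0.458 to 0.273 ± 0.1001 CPM and PKD1L1 from 1.85 ± 0.154 to 0.868 ± 0.153 CPM. RRS1-AS1 lies 3509 bases from ADHFE1, the gene of a mitochondrial dehydrogenase. RRS1-AS1 measured 1.15, 0.926 and 0.707 CPM in controls and 0.107, 0.269 and 0 CPM under the RUNX1-IT1 ASO, and ADHFE1 went from 2.10 ± 0.576 to 0.711 ± 0.357 CPM. The other pair held AARD, 61331 bases from RAD21-AS1, which measured 0.797, 0.753 and 1.08 CPM in controls and 2.09, 1.88 and 1.70 CPM under the RUNX1-IT1 ASO, higher in each of them.

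The -AS members were then placed against their sense genes in GENCODE release 29 (GRCh38), in which all 69 members were found. In 13 of 50 the antisense RNA and the sense gene point away from each other without overlap, with starts 21 to 1140 bases apart. In 18 the antisense RNA runs across the start of the sense gene, in 16 it lies inside the gene and in 3 it runs across its end. The starts were within 1000 bases of each other in 22 of 50. RefSeq now lists 9 of the 50 as divergent transcripts (-DT). The 7 tested members of the divergent arrangement had a median change of -1.17, the 12 across the start -1.06, the 8 inside the gene -1.04 and the 3 across the end -0.68. The first 3 ranges overlapped widely, from -1.76 to -0.67, -1.73 to -0.83 and -1.66 to -0.68. The 3 RNAs across the end, NDUFV2-AS1, CCDC183-AS1 and PARD6G-AS1, ranged from -0.73 to -0.60. The order depends on the scale, since the median folds by group means were 2.74, 3.22, 3.33 and 2.22 in the same order, over the 11, 18, 15 and 3 RNAs with a RUNX1-IT1 ASO mean above the floor. These are descriptions of few RNAs, and no difference between arrangements was tested.

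**Figure D4:**
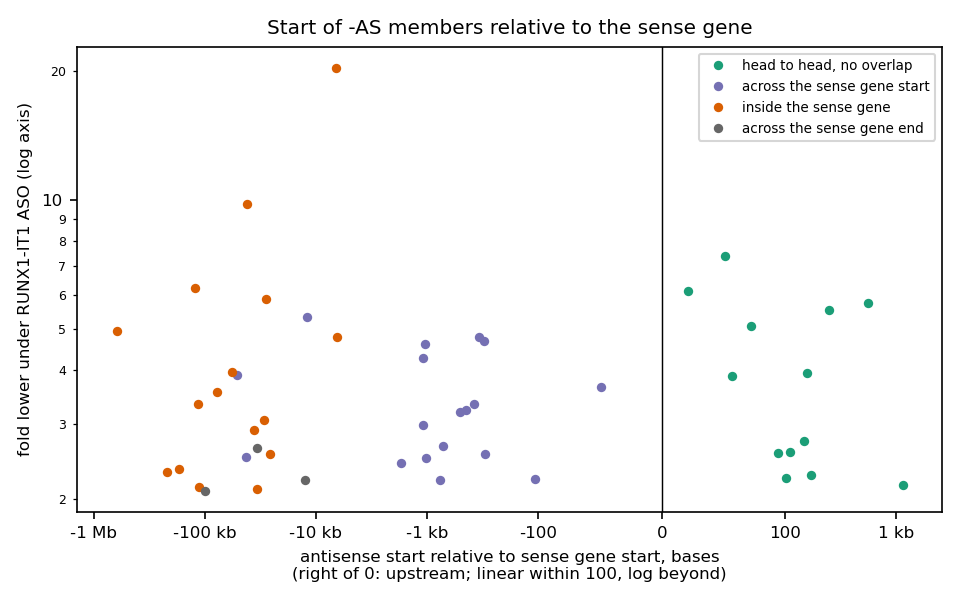
Fold by which each of the 50 -AS members was lower under the RUNX1-IT1 ASO (y, log axis) against the distance of its start from the start of the sense gene (x, bases; linear within 100 bases and log beyond), coloured by arrangement. RNAs with starts close to the sense gene start and RNAs far inside the gene overlap widely in fold, and ZEB2-AS1 and CFLAR-AS1, which rest on 6 and 18 reads after knockdown, are at the top.

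Strand matters for these values, since 31 of the 69 members, 27 of them -AS and 4 LINC, share exon bases with a gene on the other strand. The 19 tested members with such overlap had a median change of -0.98 and the 18 without it -0.95. By group means, the median fold was 2.99 in the members with overlap and 3.37 in those without, over the 29 and 33 with a RUNX1-IT1 ASO mean above the floor. The part of reads from the other strand in these values was not tested. Among members without annotated exon overlap were STK4-AS1, RASAL2-AS1, INHBA-AS1, TNKS2-AS1 and LINC01024.

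Scaling to the listed rows alone changed the picture. When the libraries were rescaled to equal totals over the 1113 rows, the median of all tested rows moved from -1.11 to -0.06. By construction this centres rows that nearly all were lower, so a value above 0 means that the RNA was lower by less than the rows' sum. The members' median moved to -0.02, with 19 of 37 below 0 and 18 above. After rescaling 8 members were called lower, none higher and 29 neither (limma), where 24.1% of all tested rows were called lower and 8.79% higher. The 8 were ZEB2-AS1 (-1.04 ± 0.13), CFLAR-AS1 (-0.98 ± 0.18), STK4-AS1 (-0.66 ± 0.12), ATP2B1-AS1 (-0.60 ± 0.13), TNKS2-AS1 (-0.56 ± 0.13), INHBA-AS1 (-0.52 ± 0.13), LINC02154 (-0.45 ± 0.14) and RASAL2-AS1 (-0.40 ± 0.11). NEXN-AS1, LBX2-AS1, VIM-AS1, MKLN1-AS, LPP-AS2 and GAS6-AS2, the 6 members of highest mean, stood at 0.08 to 0.31, and none of these was called.

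**Figure D5:**
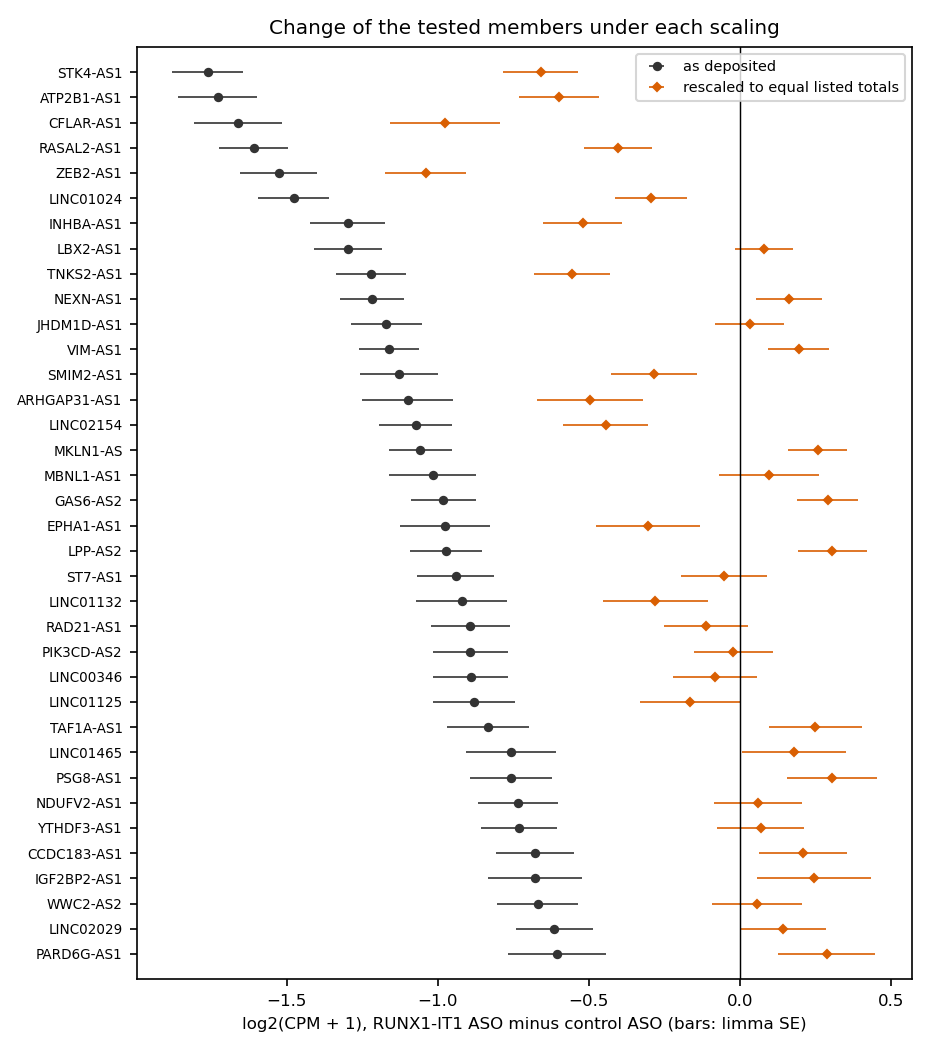
Change of 36 of the 37 tested members on the log2(CPM + 1) scale with limma standard errors, from the deposited values (circles) and after rescaling to equal listed totals (diamonds). As deposited all lie between -1.76 and -0.60, and after rescaling they spread from -1.04 to 0.31 around 0.

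The order of the members also depends on the scale. Across the 37 tested RNAs, Spearman's rho between the log2 mean CPM and the log2(CPM + 1) change was -0.42, larger falls going with higher levels. Between the mean CPM and the fold it was -0.36, larger folds going with lower levels. These are descriptions across genes that share the same 6 libraries.

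Long non-coding RNAs with other forms of name were sought with a chosen list of names and name endings, which is not complete. It gave 10 rows, RPPH1 and TERC among them, and this is not a count of all such RNAs. Of the 10 rows 5 were tested and all 5 fell, where 97.5% of all tested rows did, with a median change of -1.13. The groups did not overlap in any of the 10, where 95.7% of all named rows were separated with the lower values after knockdown, with control means of 0.818 to 80.1 CPM and knockdown means of 0.167 to 35.5 CPM.

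Promoter windows of the kind printed above were available for 50 of the 69 members. Searched on both strands, the AP-1 motif TGANTCA was in 8.0% of them (LINC00346, LINC01132, LINC01215 and LINC02029), against 7.76% of all 27305 RefSeq windows of the same length. The cyclic AMP response element TGACGTCA was in none of them, against 1.98% of all. The E-box CACGTG was in 12.0% (STK4-AS1, TNKS2-AS1, TAF1A-AS1, NDUFV2-AS1, DLG1-AS1 and OSER1-AS1), against 7.43%. The TATA letters TATAAA were in 12.0% against 11.95%. The median G and C content was 59.0% against 58.3%. The windows of TAF1A-AS1, LINC01132 and LINC02029 each held a pair of these motifs. The counts describe letters only.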

How the data were processed

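RNA from 6 ES2 libraries was sequenced after mRNA-focused library preparation, per the labels' protocols. The submitters' processing notes name GRCh38 as the build, with fastp 0.22.0 and FastQC 0.11.9 among the tools. The aligner, the counting, the annotation, the use of strand and the choice of rows are not given in the sources used here. CPM is the unit of the deposited tables, as judged from evenly spaced low values. The values are CPM, and reads were only estimated from these steps, so no count test was run.

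In R 4.3.3, limma 3.58.1 with a mean-variance trend was fitted to log2(CPM + 1) with group as the only term, over 489 named rows with a mean of at least 1 CPM, with Benjamini-Hochberg adjustment over these rows. Unnamed rows stayed out. The fit was tested on simulated data. The members, lists and groupings were chosen with earlier results of these data known. Named members were the 30 tested ones of highest mean, those with a listed sense gene and the 5 untested ones of highest control mean; other names were chosen after values were seen. The values of 1 tested member are not reported here, and it is left out of the plots that name members. GENCODE release 29 gave positions, and sense genes were those in the -AS symbol. Promoter windows holding exons of coding genes were not printed. Replicates differed beyond sampling noise, as judged from the estimated reads (chi-square per degree of freedom 1.97 to 2.79). The labels do not say whether they were separate cultures, so p-values measure only the spread between these samples. Alternatives were other pseudocounts, filters, rows and scaling, a replicate block, and leaving out each library.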

Additional observations from a re-analysis of the deposited data

How the results depend on the processing

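All 30 tested members named by level stayed lower and past the threshold with a pseudocount of 0.1 CPM, with no filter, with a mean of at least 0.5 CPM, with unnamed rows kept, with the replicate block and without any 1 library. Nearly all tested rows did so too, 477 of 489 being called lower with that pseudocount and 477 or 478 without any 1 library. This stability is therefore no result about the members. Rescaling to equal listed totals was the exception. It left 8 members called lower, and over all rows 118 lower and 43 higher. It turned 16 named members positive, at 0.16 for NEXN-AS1, 0.08 for LBX2-AS1, 0.19 for VIM-AS1, 0.26 for MKLN1-AS, 0.31 for LPP-AS2, 0.29 for GAS6-AS2 and PARD6G-AS1, 0.03 for JHDM1D-AS1, 0.10 for MBNL1-AS1, 0.25 for TAF1A-AS1, 0.30 for PSG8-AS1, 0.18 for LINC01465, 0.24 for IGF2BP2-AS1, 0.21 for CCDC183-AS1, 0.07 for YTHDF3-AS1 and 0.06 for NDUFV2-AS1. Of the other 14 named members, 7 stayed called and 7 did not pass. With no filter 750 named rows were called lower and 19 higher, and all 69 members lower, where 97.3% of rows were. With a mean of at least 0.5 CPM these counts were 729, 18 and 67, since more rows were tested. With unnamed rows kept 20 rows were called higher. With the replicate block the counts were 478 lower, 10 higher and 37 members lower. Same-numbered libraries did not deviate together (correlations of -0.24, -0.10 and -0.02), so the numbers were not taken as pairs. Depth limits the members under 1 CPM, where few reads set each value.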
